A study of Mus musculus with 8 samples.

Results

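The 8 genes described here carry and limit signals from interferons and related cytokines: the transcription factor genes Stat2 and Stat3, the interferon regulatory factor genes Irf1, Irf7, Irf8 and Irf9, and the inhibitor genes Socs1 and Socs3. They were chosen by symbol, with no measured value in the rule, and each stood once among the 55367 gene symbols of all 4 gene tables. The study profiled CD4+ T cells of the mouse meninges, the membranes around the brain, and hippocampal cells with and without depletion of Foxp3-expressing regulatory T cells. Meningeal cells sorted as CD45+ CD3+ CD4+ came in 2 replicates without treatment, the first from mice labelled Foxp3-GFP and the second from mice labelled B6.WT, so genotype and replicate cannot be told apart. Hippocampal cells sorted as CD45- and Thy1-, a gate that leaves out leukocytes and many neurons, came in 1 library from Foxp3-DTR- mice (DTRneg) and 1 from Foxp3-DTR+ mice (DTRpos). The Foxp3-DTR allele makes Foxp3-expressing cells sensitive to diphtheria toxin, which both genotypes received. Each hippocampal library pooled 2 mice, so the genotypes have no replicates and the values below compare 2 libraries. The labels give no age.

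As background, interferons bind receptors whose JAK kinases phosphorylate STAT proteins. Type I interferon assembles a complex that contains STAT2 and IRF9 and binds interferon-stimulated response elements, whereas interferon-gamma and interleukin-6 family cytokines act through STAT dimers that bind GAS elements. IRF1 and IRF7 are made in response and extend the programme, IRF8 is characteristic of myeloid and B cells, and SOCS1 and SOCS3 bind receptors and kinases and damp the signal.

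The promoters are shown because several members are themselves known targets of the pathway. In the 250 bases before the start sites that RefSeq lists on GRCm38.p6 (11 windows for the 8 genes), 2 motifs were searched on both strands. A GAS-type motif, TTCNNNGAA, was held by 7.02% of all 32851 mouse promoter windows of that length, and an IRF-type motif, GAAANNGAA, by 7.13%. Matches fell in 5 of the 8 genes. The sequences run 5′ to 3′ on the gene's strand, with the matched letters in capitals. Irf1 (plus strand, chr11:53769764-53770013) has a GAS-type match that begins 90 bases before its start, Stat2 (plus strand, chr10:128270248-128270497) an IRF-type match on the opposite strand 221 bases before, and Socs1 (minus strand, chr16:10785537-10785786) a pair of overlapping IRF-type matches 83 and 77 bases before.
Irf1: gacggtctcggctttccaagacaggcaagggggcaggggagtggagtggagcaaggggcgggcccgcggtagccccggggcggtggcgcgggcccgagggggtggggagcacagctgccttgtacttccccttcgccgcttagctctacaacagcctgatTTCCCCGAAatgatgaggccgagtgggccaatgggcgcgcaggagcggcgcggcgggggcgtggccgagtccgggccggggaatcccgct
Stat2: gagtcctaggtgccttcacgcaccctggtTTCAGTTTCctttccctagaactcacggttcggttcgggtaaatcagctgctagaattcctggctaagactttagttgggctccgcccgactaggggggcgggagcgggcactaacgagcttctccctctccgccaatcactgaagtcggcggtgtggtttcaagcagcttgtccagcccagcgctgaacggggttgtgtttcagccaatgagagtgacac
Socs1: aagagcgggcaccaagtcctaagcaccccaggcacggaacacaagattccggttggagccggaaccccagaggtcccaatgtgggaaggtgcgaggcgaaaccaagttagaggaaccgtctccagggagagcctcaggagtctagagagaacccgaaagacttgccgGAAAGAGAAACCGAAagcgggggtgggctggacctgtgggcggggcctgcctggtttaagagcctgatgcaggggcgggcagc
For Socs3 and Irf8 the match is shown with 10 bases on each side. The GAS-type match of Socs3 (minus strand) lies 154 bases before its RefSeq start, and those of Irf8 (plus strand) lie 171 and 153 bases before.
Socs3: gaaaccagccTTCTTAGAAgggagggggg
Irf8, first: caaaagtgatTTCTCGGAAagagagcgct
Irf8, second: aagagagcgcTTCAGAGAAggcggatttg
Such a match is a description of the letters, not a bound site. These windows of Stat3, Irf7 and Irf9 held no match to either motif.

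In GENCODE mouse release M21 of the same build, Stat2 lies at chr10:128270559-128292849 on the plus strand and Stat3 at chr11:100885098-100939540 on the minus strand. Irf1 (chr11:53770014-53778374), Irf8 (chr8:120736358-120756694) and Irf9 (chr14:55603571-55610030) lie on the plus strand, and Irf7 (chr7:141262706-141266481) on the minus strand. Socs1 (chr16:10782240-10785536) and Socs3 (chr11:117966079-117970047) are both on the minus strand. All values are sums over the whole gene.

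The 4 tables held 35814655 to 68830571 unique molecular identifiers (UMIs, counted molecules). After filters, 1605 and 3330 T cells remained in meningeal replicates 1 and 2, with median depths of 2971 and 1618 UMIs, and 6863 DTRneg and 5691 DTRpos cells in the hippocampus. Hippocampal cells were classed by 1 marker each: 477 DTRneg and 354 DTRpos Cldn5 cells (endothelial), 189 and 153 Rgs5 cells (pericyte), 636 and 663 Aqp4 cells (astrocyte), 664 and 803 Pdgfra cells (oligodendrocyte precursor), 3711 and 2578 Mog cells (oligodendrocyte) and 49 and 37 Dcn cells (fibroblast). In each class its own list of 7 markers summed highest among the 6 lists, but Dcn cells also carried 12909 and 13133 CPM (UMIs scaled to a class total of 1e6 UMIs) of the pericyte and mural list, beside 15567 and 16165 of their own. The median cell was shallower in DTRpos than in DTRneg in all 6 classes. Foxp3, the gene that marks the depleted cells, had 0 UMIs in all 6 classes of both libraries, so this sort gives no check of the depletion. The hippocampal libraries shared 18 barcodes and the meningeal ones 554.

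In the hippocampus, Stat2, Irf1, Irf7 and Irf9 were highest in Cldn5 cells in both libraries. Levels of a gene are likewise in CPM, and their 95% intervals are exact Poisson intervals that cover counting error only. Stat2, the partner of IRF9 in the type I complex, was at 58.3 CPM (44.4 to 75.2) in DTRneg and 55.5 CPM (39.1 to 76.5) in DTRpos Cldn5 cells. The next class, Aqp4 cells, had 14.7 and 10.9 CPM, and the remaining 4 classes ran from 0 to 10.2 CPM, with ranges that overlapped. Irf9 was at 108 and 123 CPM in Cldn5 cells, 29.8 and 28.5 CPM in Dcn cells on 5 and 3 UMIs, and 2.41 and 2.71 CPM in Mog cells, the lowest class.

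Irf1, which induces antigen presentation genes, was at 133 CPM in DTRneg and 158 CPM in DTRpos Cldn5 cells, above every other class. Rgs5 and Dcn cells came next but their libraries stood far apart, at 66.1 against 3.89 CPM and at 5.96 against 38.0 CPM, so their order among themselves and against Pdgfra cells (19.4 and 21.05 CPM) is not set. Irf7, the factor that amplifies type I interferon, was at 131 and 218 CPM in Cldn5 cells, while the other 5 classes lay between 0 and 23.8 CPM.

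Stat3, which acts downstream of interleukin-6 family cytokines, was found in all classes. Its lowest value was 24.6 CPM in DTRpos Aqp4 cells and its highest 66.5 CPM in DTRpos Dcn cells, on 7 UMIs. Pdgfra cells had 56.9 and 61.0 CPM, Cldn5 cells 56.3 and 55.5 CPM and Mog cells 36.9 and 40.3 CPM. The Dcn range of 35.8 to 66.5 CPM overlapped all 3 of these, and the Aqp4 range of 24.6 to 31.5 CPM overlapped that of Rgs5 cells, so the order of most neighbours is not set.

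Irf8 had at most 5 UMIs in any class of either library. No Irf8 UMI was found in Cldn5 cells of either library, where 3 counts would be 2.96 CPM in DTRneg and 4.50 CPM in DTRpos. It had 4 and 2 UMIs in Rgs5 cells (9.79 and 7.78 CPM) and 5 UMIs in DTRpos Pdgfra cells (1.35 CPM). The 0 UMIs of the small Dcn sums allow up to 22.0 and 35.1 CPM by the exact Poisson interval. The 10 microglia and macrophage markers had 0 UMIs in Cldn5 cells of both libraries.

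The inhibitors followed another order. Socs3 was highest in Dcn cells, at 334 CPM (252 to 433) in DTRneg and 276 CPM (185 to 396) in DTRpos, with 15 of 56 and 9 of 29 UMIs in the richest cell. Rgs5 cells at 154 and 81.7 CPM and Cldn5 cells at 116 and 63.0 CPM came next with overlapping ranges, and Aqp4 cells were lowest, at 5.95 and 4.03 CPM. Socs1 was highest in Dcn cells (35.8 and 19.01 CPM, on 6 and 2 UMIs) and Cldn5 cells (23.7 and 18.0 CPM), whose ranges overlapped, and lowest in Mog cells at 1.07 and 0.919 CPM.

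**Figure D1:**
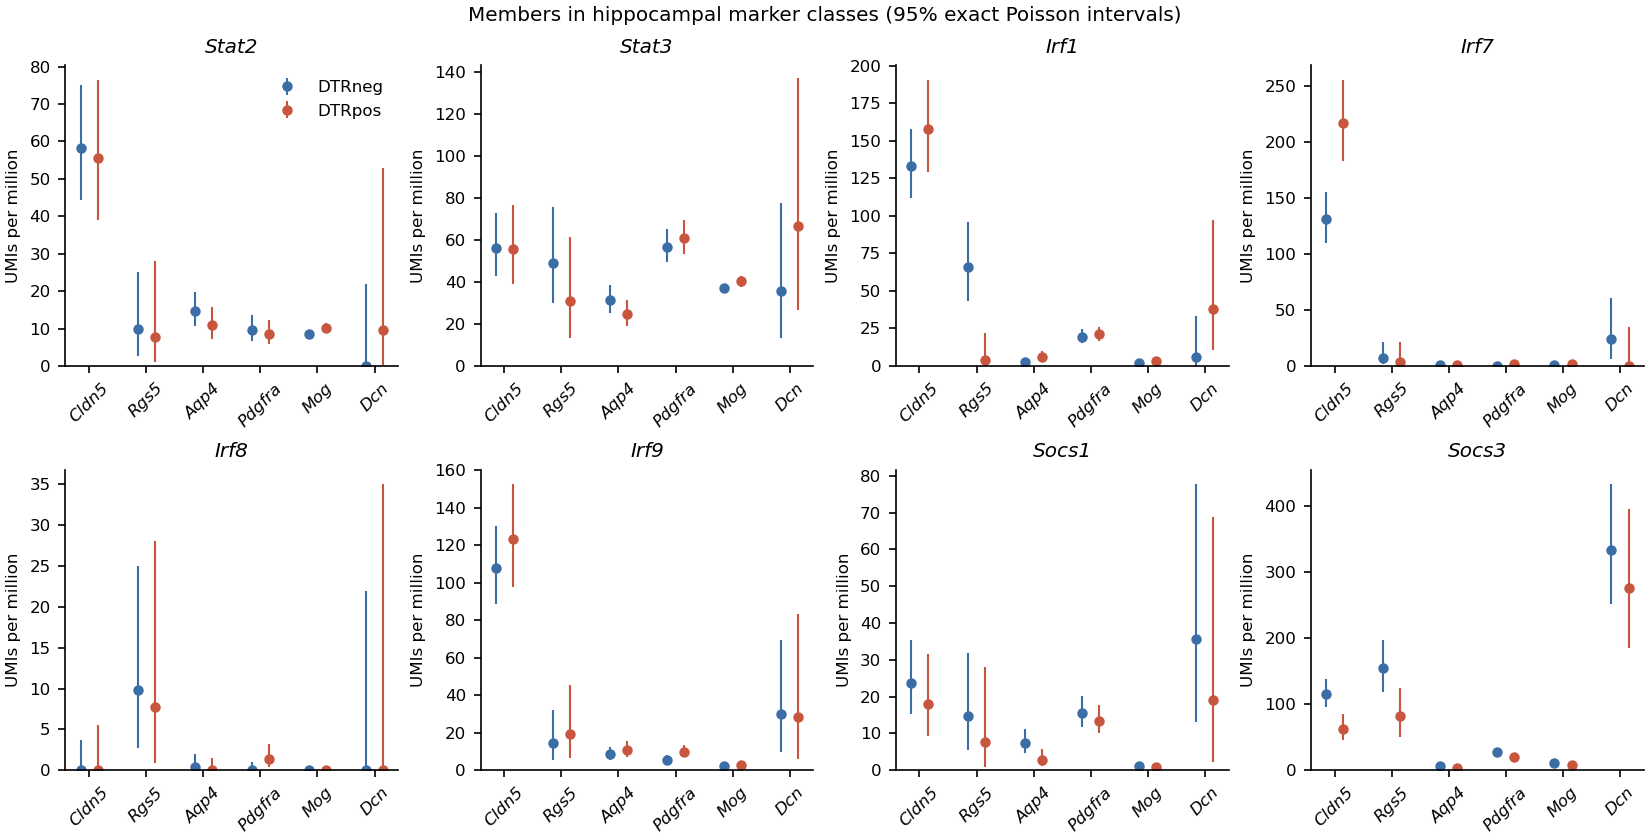
Level of each gene (CPM) in the 6 marker classes of the DTRneg and DTRpos libraries, with 95% exact Poisson intervals as bars. Stat2, Irf1, Irf7 and Irf9 are highest in Cldn5 cells and Socs3 in Dcn cells in both libraries.

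Genes whose levels over the 12 class sums were most like a member's were found by Pearson's r of log2(CPM + 10), a description over sums that share libraries and depth. Irf9 was most like Psmb8, an immunoproteasome subunit gene (r = 0.98), followed by Clec2d and Tgm2. Irf7 was most like Adcy4, St6galnac2 and C130074G19Rik (r = 0.99 for each). Irf1 lay nearest Cmtm6, Vat1 and Plekhg5 (r from 0.93 to 0.95), Stat2 near Slc30a1 (0.96) and Prom1 (0.94), and Stat3 nearest Synj2bp, Cct4 and Commd2 (0.91 to 0.94). Socs3 was nearest Man2a1, Gadd45a and Cnn2 (0.97 for each). Socs1 and Irf8 reached 50 CPM in no sum and were left out.

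Between genotypes, Irf7 was higher and Socs3 lower in DTRpos than in DTRneg endothelial cells. A ratio was called when it passed 1.5-fold with at least 30 UMIs over both libraries, and its interval is the exact conditional binomial interval of counting error. There is no test of the genotype, since each has 1 library. Irf7 had 133 UMIs in DTRneg and 145 in the smaller DTRpos sum of Cldn5 cells, a log2 ratio of 0.73 (0.38 to 1.08). The counts were spread over 91 and 103 cells, with at most 6 and 4 UMIs in 1 cell. Socs3 had 117 and 42 UMIs in 50 and 36 of the same cells, a log2 ratio of -0.88 (-1.42 to -0.36). With each cell thinned to 2000 UMIs, which kept 239 and 125 cells, the Socs3 ratio was -0.32 and no longer called, whereas that of Irf7 was 1.09.

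The other members with enough UMIs in Cldn5 cells were not called. Their log2 ratios were -0.07 for Stat2 (-0.70 to 0.55), -0.02 for Stat3 (-0.66 to 0.60), 0.24 for Irf1 (-0.14 to 0.62), 0.19 for Irf9 (-0.24 to 0.62) and -0.40 for Socs1 (-1.53 to 0.66). Over the 6451 genes with enough UMIs in these cells, 14.9% passed 1.5-fold in either direction, against 2 of the 7 members, and the median log2 ratio was 0.04. Choroid plexus RNA differed between the libraries of this class, its 5 markers summing to 1842 CPM in DTRneg and 90.0 CPM in DTRpos. With Ttr, mitochondrial and haemoglobin UMIs taken out of the totals, the ratios of Irf7 and Socs3 were 0.72 and -0.88. That setting changes only the totals, so the part of choroid plexus RNA in these ratios was not tested.

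Interferon-gamma type targets were also higher in DTRpos endothelial cells. Of 16 such genes with enough UMIs, 10 were higher past 1.5-fold and 0 lower, and their median log2 ratio was 0.66. The guanylate-binding protein genes Gbp7 and Gbp2 had log2 ratios of 0.83 (0.55 to 1.11) and 0.81 (0.44 to 1.19), and Irgm1, an immunity-related GTPase gene, 0.77 (0.27 to 1.26). Of 14 type I interferon targets 3 were higher and 0 lower (median 0.24): Zbp1 at 1.12, Rsad2 at 0.73 and Ifi27l2a at 0.60. The interval of Ifi27l2a, -0.15 to 1.36, included 0. Among 8 STAT3 targets, Lcn2 was higher (0.96), while Cebpb (-1.08) and Cebpd (-0.66), which encode C/EBP transcription factors, were lower. Of 11 receptors and kinases, Il10rb (-0.64) and Jak2 (-0.70) were lower and 0 higher, but the interval of Jak2, -1.75 to 0.27, included 0. None of 10 other inhibitors or of 4 other STAT and IRF genes was called.

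Socs3 and Socs1 were both lower in DTRpos than in DTRneg in all 6 classes, and the share of all genes with that pattern was not counted. Socs1 was called in no class. Its ratio in Aqp4 cells, on 21 and 7 UMIs and so short of the UMI minimum, was -1.38 (-2.86 to -0.09). In Rgs5 cells Socs3 had 63 and 21 UMIs, a log2 ratio of -0.92 (-1.70 to -0.18). In Mog cells it had 411 and 169 UMIs, or 11.3 and 7.40 CPM, a log2 ratio of -0.61 (-0.88 to -0.35). These 2 ratios and that of Cldn5 cells passed 1.5-fold, and the other 3 did not: -0.47 (-0.93 to -0.02) in Pdgfra cells, -0.28 (-0.98 to 0.40) in Dcn cells and, on 17 and 10 UMIs, -0.56 (-1.85 to 0.65) in Aqp4 cells. With at least 5 Mog UMIs asked of a Mog cell the Mog ratio was -0.58, and with at least 1 it was -0.56, both short of 1.5-fold. Cebpb was lower in Rgs5 cells (-1.17) and Pdgfra cells (-1.24) as well. In Rgs5 cells 17.0% of 3775 genes passed 1.5-fold, and Socs3 was the 1 member with enough UMIs. Of 3 type I targets in these cells, Ifi35 was higher (0.75) and Isg15 lower (-0.74), and of the other lists Ptpn11 was higher (0.79) and H2-D1 lower (-0.80). The intervals of Ifi35 (-0.29 to 1.80), Isg15 (-1.63 to 0.10) and Ptpn11 (-0.10 to 1.70) included 0. Choroid plexus markers of Rgs5 cells summed to 3716 CPM in DTRneg and 42.8 CPM in DTRpos. The part of that difference in the Socs3 ratio was not tested.

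Irf1 in Rgs5 cells fell short of the UMI minimum and was singled out after its values were seen. It had 27 UMIs in 11 DTRneg cells, 9 of them in 1 cell, against 1 UMI in DTRpos, a log2 ratio of -4.09 with an interval from -9.44 to -1.48.

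In oligodendrocytes, Irf7 and Irf1 were higher in DTRpos, on few cells. Irf7 had 28 UMIs in 14 of 3711 DTRneg Mog cells and 39 UMIs in 11 of 2578 DTRpos Mog cells, a log2 ratio of 1.15 (0.41 to 1.91), and its richest cells held 7 and 11 UMIs. Irf1 had 75 and 80 UMIs in 51 and 46 cells, a log2 ratio of 0.77 (0.29 to 1.24), with 17 UMIs in 1 DTRpos cell. Without the richest cell of each library the ratios of Irf7 and Irf1 were 1.09 and 0.59. With cells weighted equally they were 0.80 and 0.18, which ended the Irf1 call, and in thinned cells Irf1 was at 0.14. Stat2 (0.27, 0.02 to 0.52), Stat3 (0.13, 0.00 to 0.25), Irf9 (0.17, -0.32 to 0.65) and Socs1 (-0.22, -1.06 to 0.58) were not called. In Mog cells 7.86% of 13539 genes passed 1.5-fold, against 3 of 7 members.

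Type I interferon targets were higher in DTRpos Mog cells in 5 of 10 genes and lower in 0 (median 0.56), while the summed level of the list was 118 CPM in DTRneg and 114 CPM in DTRpos. They were led by Rsad2 (14 and 68 UMIs, log2 ratio 2.95), Isg15 (24 and 89 UMIs, 2.56) and Oasl2 (10 and 28 UMIs, 2.16). The inhibitor gene Socs2 (1.88) and, of 7 interferon-gamma type targets, Psmb8 (2.74) were also higher. Microglia and macrophage markers summed to 0.987 and 1.84 CPM here, with 8 and 9 of 10 detected, Tyrobp at 0 in DTRneg and Mrc1 at 0 in both. Without cells with any such UMI, the Irf7 ratio was 1.08 and that of Irf1 0.79.

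In the precursors, Irf9 was the 1 of 6 members called, at 19 and 36 UMIs, or 5.27 and 9.72 CPM, a log2 ratio of 0.88 (0.04 to 1.77). With at least 5 Pdgfra UMIs asked of a cell its ratio was 0.58, under 1.5-fold. In that class 7.84% of 11896 genes passed. Bst2, a membrane-tethered antiviral gene, had 4 and 37 UMIs there (log2 ratio 3.17), and it and Rtp4 (0.92) were the 2 of 4 type I targets that were higher, with 0 lower. Of 8 interferon-gamma type targets 4 were higher and 0 lower, led by Psmb8 (0.78), Irgm1 (0.75) and Gbp7 (0.70), while the summed level of the list was 338 CPM in DTRneg and 331 CPM in DTRpos. The intervals of Psmb8 (-0.03 to 1.62) and Gbp7 (-0.28 to 1.73) included 0. Red cell markers, the haemoglobin genes among them, summed to 4118 CPM in the DTRneg and 42.9 CPM in the DTRpos precursors. With haemoglobin, mitochondrial and Ttr UMIs taken out of the totals, the Irf9 ratio was 0.87. Only the totals change in that setting, so the part of red cell RNA in the Irf9 ratio was not tested.

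None of 3 members was called in Aqp4 cells, where 10.0% of 9833 genes passed: Stat2 was at -0.43 (-1.19 to 0.30), Stat3 at -0.36 (-0.85 to 0.13) and Irf9 at 0.37 (-0.47 to 1.23). Of 9 interferon-gamma type targets there, the chemokine gene Cxcl10 was higher (10 and 32 UMIs, 1.88), and Irgm1 (-0.997) and H2-D1 (-0.67) were lower. The interval of Irgm1, -2.23 to 0.13, included 0. Of the other lists in these cells, the inhibitor gene Socs5 (0.87) and the STAT3 target Bcl6 (0.91) were higher, and Osmr, the oncostatin M receptor gene, was lower (-0.97). Socs3 was the 1 member with enough UMIs in Dcn cells, where 21.8% of 1495 genes passed, among them Jak1 (-0.70) and B2m (-0.61). The intervals of Jak1 (-1.79 to 0.31) and B2m (-1.62 to 0.33) included 0. Irf8 had too few UMIs to compare in any class. Over the 6 classes, 25 of the 48 pairs of member and class had enough UMIs, and 7 were called, 4 higher and 3 lower in DTRpos. Over all genes the share called ran from 7.84% in Pdgfra cells to 21.8% in Dcn cells. The pairs repeat the same genes in the same libraries, so they are not independent.

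**Figure D2:**
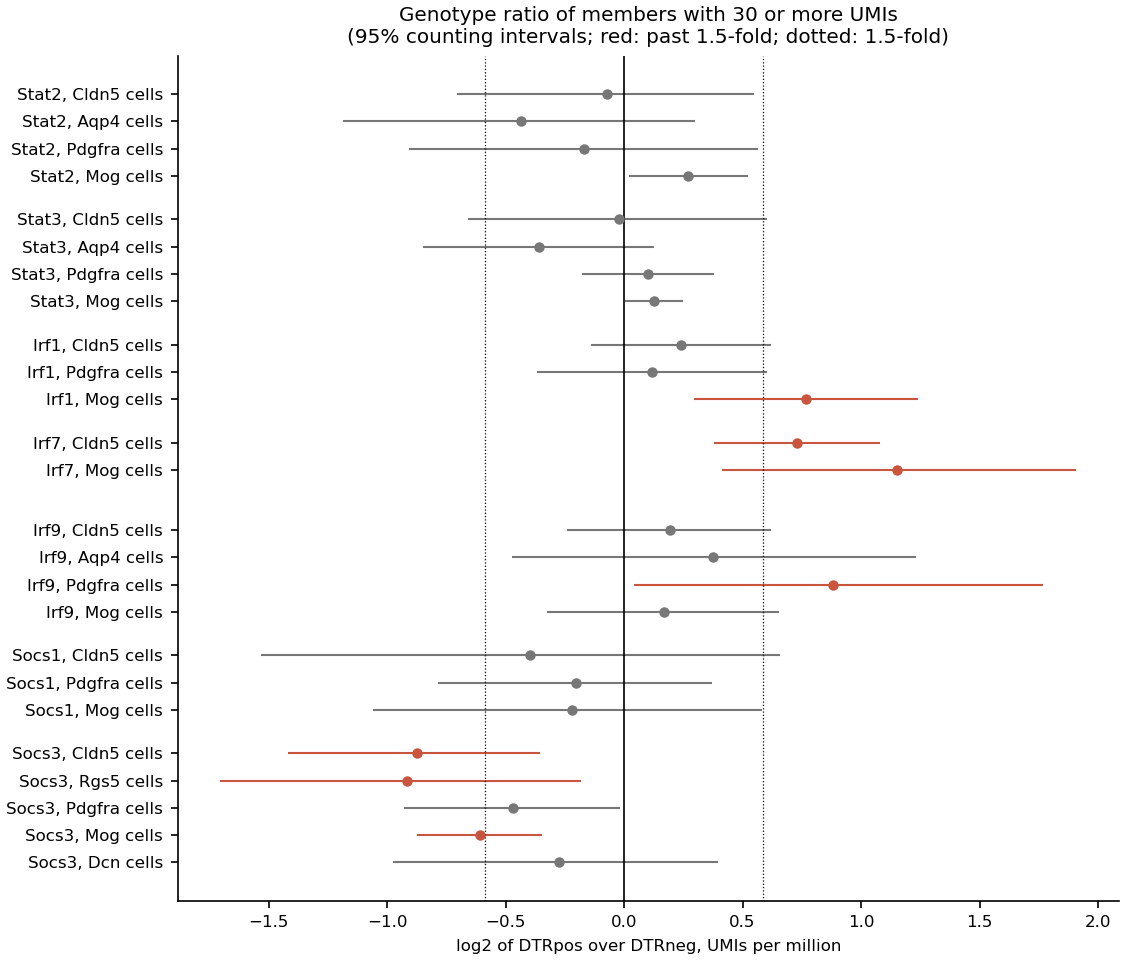
Log2 ratio of the DTRpos over the DTRneg level for the 25 pairs of gene and class with at least 30 UMIs, with 95% counting intervals as bars. The 7 pairs past 1.5-fold are red, dotted lines mark 1.5-fold, and all 5 Socs3 points lie below 0.

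The hippocampal classes were also split by each cell's own UMIs of the Ifit genes (Ifit1, Ifit1bl1, Ifit2, Ifit3 and Ifit3b, targets of type I interferon), as a description. At least 2 such UMIs were found in 72 of 477 DTRneg Cldn5 cells (15.1%) and 54 of 354 DTRpos Cldn5 cells (15.3%). In DTRneg, Irf7 was at 305 CPM in these cells and 80.0 CPM in Cldn5 cells with 0 Ifit UMIs. In DTRpos the values were 373 and 198 CPM, and the genotypes stood farther apart in the cells without Ifit UMIs. Median depth was 2437.5 and 1905 UMIs in the Ifit and Ifit-zero cells of DTRneg, and 1966 and 1524 UMIs in those of DTRpos. The part of depth in this split of Cldn5 cells was not tested. Irf9 was at 127 and 97.2 CPM in DTRneg and 210 and 96.4 CPM in DTRpos. Socs3 went the other way, at 74.9 CPM in Ifit cells and 120 CPM in Ifit-zero cells of DTRneg, and at 38.8 and 71.7 CPM in DTRpos. All Cldn5 cells together held 117 and 42 Socs3 UMIs, so the values of the Ifit cells rest on few molecules. No interval was computed for this split.

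Of Mog cells, 50 DTRneg (1.35%) and 26 DTRpos (1.01%) had 2 or more Ifit UMIs, and these held 67.9% and 74.4% of the Irf7 UMIs of the class. In them Irf7 was at 19.3 CPM in DTRneg and 53.3 CPM in DTRpos, against 0.246 and 0.247 CPM in Ifit-zero Mog cells. Irf1 was at 7.12 and 55.1 CPM in the Ifit cells. Of the 80 Irf1 UMIs of all DTRpos Mog cells, 17 lay in 1 cell, whose part in this value was not tested. The Ifit cells were deep, with medians of 15505 and 17067 UMIs against 7557 and 6284 in Ifit-zero cells. The part of depth in the split was not tested.

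**Figure D3:**
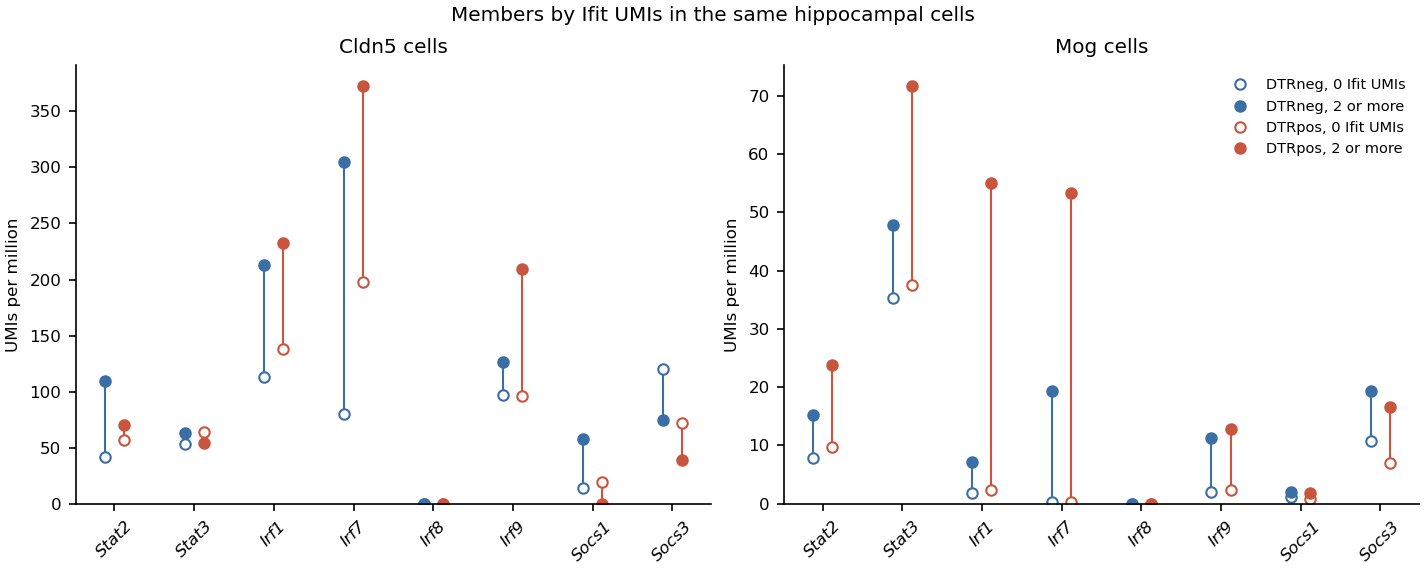
Level of each gene (CPM) in Cldn5 cells (left) and Mog cells (right) with 0 Ifit UMIs (open points) and 2 or more (filled points), joined within a library. In Cldn5 cells Irf7 stands at 80.0 and 305 CPM in DTRneg and at 198 and 373 CPM in DTRpos.

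In meningeal CD4+ T cells, Irf7, Stat2 and Irf9 were 2.26 to 5.16 times higher, as the geometric mean of both replicates, in cells with 2 or more Ifit UMIs than in cells with 0. These Ifit-positive cells numbered 249 of 1605 in replicate 1 (15.5%) and 197 of 3330 in replicate 2 (5.92%). In replicate 1, Irf7 was at 390 CPM in Ifit-positive cells and 70.8 CPM in Ifit-zero cells, and in replicate 2 at 431 and 89.0 CPM. Stat2 was at 77.1 and 16.9 CPM, then 62.9 and 23.8 CPM, and Irf9 at 152 and 58.9 CPM, then 133 and 67.2 CPM. Each of these 3 genes was higher in Ifit-positive cells in both replicates.

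Socs1, the feedback inhibitor of interferon receptors, was at 307 CPM in Ifit-positive and 188 CPM in Ifit-zero cells of replicate 1, and at 387 and 246 CPM in those of replicate 2. Irf1 was at 236 against 161 CPM and 214 against 172 CPM. Socs3 stood at 135 and 60.3 CPM in replicate 1 but 105 and 92.2 CPM in replicate 2. These 3 genes were also higher in Ifit-positive cells in both replicates, with log2 ratios for Socs3 of 1.16 and 0.18. Stat3 differed little, at 119 against 113 and 156 against 151 CPM. Irf8 was at 30.4 against 38.6 and 58.2 against 57.0 CPM.

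In edgeR's quasi-likelihood test without a replicate term, 0 of 10526 genes (0%) passed an adjusted p of 0.05, and 265 had an unadjusted p under 0.05. The log2 fold changes of that fit were 2.42 ± 0.18 for Irf7 (SE, n = 2, adjusted p = 0.145), 1.86 ± 0.26 for Stat2 (adjusted p = 0.313) and 1.24 ± 0.19 for Irf9 (adjusted p = 0.394). The other 5 had adjusted p = 1.0. Both states come from the same mice, and with the replicate as a block edgeR called 6 of the 8 members, all higher, where 3.32% of all genes were called higher. They were Irf7 (2.42 ± 0.12, adjusted p = 1.07e-79), Stat2 (1.90 ± 0.22, 1.73e-16), Irf9 (1.26 ± 0.14, 3.52e-16), Socs1 (0.73 ± 0.11, 6.12e-09), Socs3 (0.82 ± 0.15, 3.45e-06) and Irf1 (0.50 ± 0.13, 0.00314). Stat3 (0.12 ± 0.15, 0.926) and Irf8 (-0.12 ± 0.21, 0.965) were not called. The blocked fit leaves 1 residual degree of freedom a gene and rests on spread shared over genes. DESeq2 without the block called 4 members higher (Irf7, Stat2, Irf9 and Socs1), where 0.979% of genes were called higher.

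Fibroblast markers moved with the Ifit state in replicate 1. The 7 markers summed to 1544 CPM in its Ifit-positive and 594 CPM in its Ifit-zero cells, against 0 and 31.6 CPM in replicate 2. Other lists moved with it in replicate 1. Pericyte and mural markers summed to 646 and 213 CPM, against 4.66 and 96.4 CPM in replicate 2. Endothelial markers summed to 245 and 140 CPM in replicate 1 and oligodendrocyte precursor markers to 56.8 and 19.4 CPM, and the part of these 3 lists in the results was not tested. Without cells with any fibroblast marker UMI, which left 1368 of 1605 cells in replicate 1 and 3294 of 3330 in replicate 2, Socs3 stood at 53.6 and 36.0 CPM in the Ifit-positive and Ifit-zero cells of replicate 1, and at 105 and 93.2 CPM in replicate 2. Its blocked edgeR fold change was then 0.39 ± 0.18 (adjusted p = 0.387). Irf1 also missed the threshold in those cells (0.40 ± 0.13, adjusted p = 0.0572 by edgeR). Irf7 (2.49), Stat2 (1.94), Irf9 (1.31) and Socs1 (0.78) were again called, 4 of 8 members where 2.80% of genes were called higher.

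Graded by the number of Ifit UMIs in a cell, Irf7 in replicate 1 was at 70.8, 120, 162 and 479 CPM in cells with 0, 1, 2 and 3 or more. In replicate 2 it was at 89.0, 160, 267 and 593 CPM, higher at each step in both. Stat2 was higher at each step too, at 16.9, 27.7, 46.7 and 89.1 CPM in replicate 1 and at 23.8, 24.9, 32.8 and 92.6 CPM in replicate 2. The 2 middle values of replicate 2 rest on 22 and 7 UMIs, and its first step is small. Irf9 in cells with 1 Ifit UMI was at 58.4 CPM in replicate 1, beside 58.9 CPM in cells with 0, and at 91.5 CPM in replicate 2. Socs1 was at 188, 202, 205 and 348 CPM in replicate 1 and at 246, 239, 356 and 417 CPM in replicate 2. Median depth was 2805 and 3220 UMIs in the end groups of replicate 1 and 1592.5 and 1703 in those of replicate 2.

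**Figure D4:**
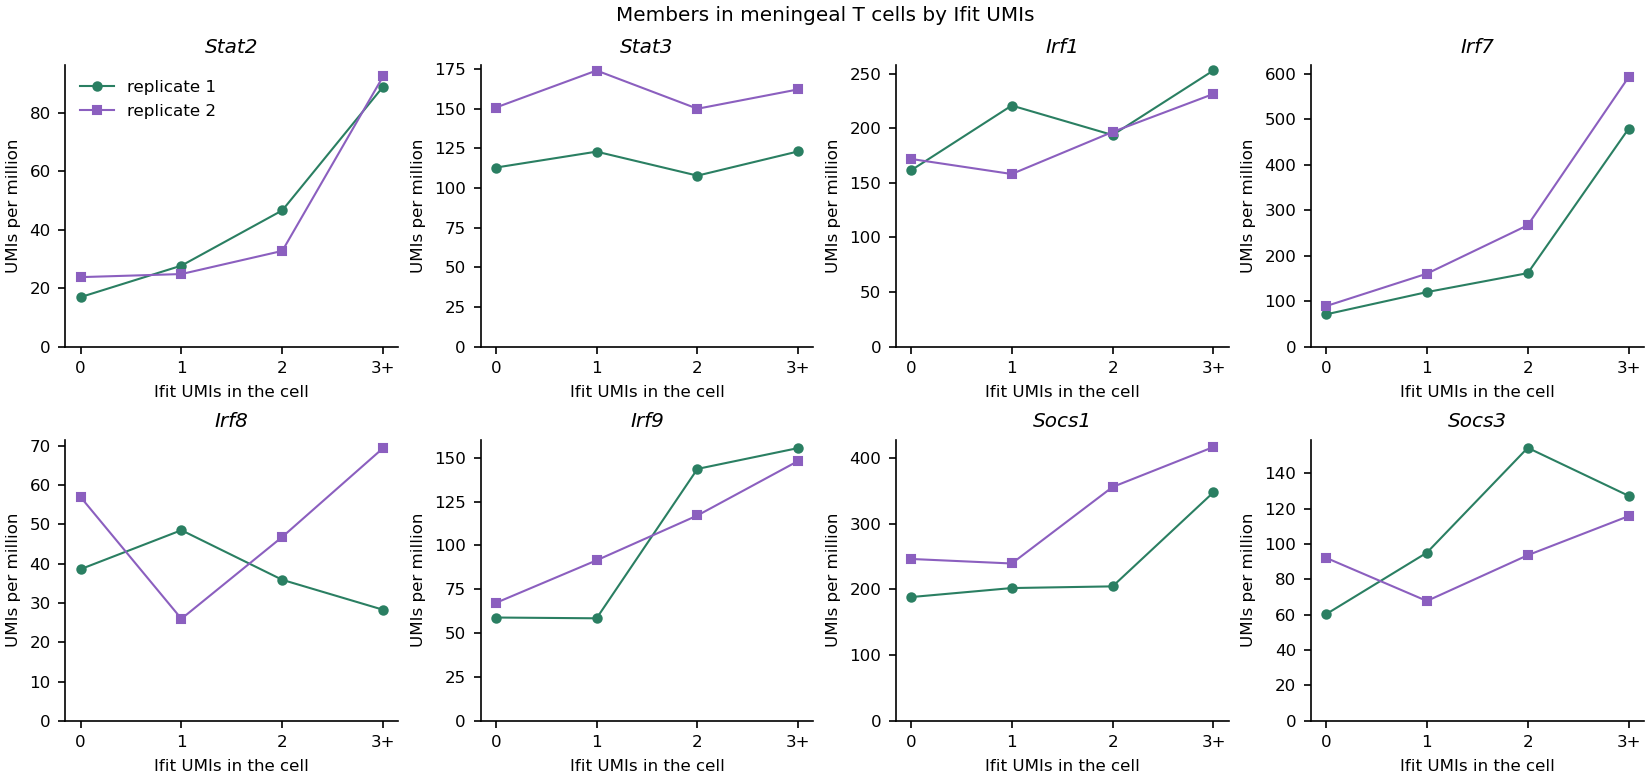
Level of each gene (CPM) in meningeal T cells by their number of Ifit UMIs, for each replicate. Irf7 and Stat2 are higher at every step in both replicates, though the first Stat2 step of replicate 2 is small (23.8 to 24.9 CPM). Stat3 stays between 108 and 174 CPM.

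The other genes of the pathway split by role under the same blocked edgeR test. All 18 type I interferon targets and 16 of 17 interferon-gamma type targets were called higher, among them Rsad2 (5.15), Isg15 (4.07) and Iigp1 (2.64). Their medians in the unblocked fit were 2.33 and 1.12, against 0.73 for the 8 members and 0.0048 over all genes. The Ifit genes that set the state are themselves type I targets, so that list is not an independent measure. The same holds for members and other listed genes that are made in response to interferon. Among 13 other inhibitors, Usp18, the protease that removes ISG15 and blocks the type I receptor (3.99 ± 0.17), and Trim30a (1.89 ± 0.14) were called. None of 10 receptors and kinases and none of 10 other STAT and IRF genes was called. Of 10 STAT3 targets, Fos (0.47) and Junb (0.28) were called, although both were lower in Ifit-positive than in Ifit-zero cells of replicate 2 in CPM. Without the block no gene of these lists was called, and the smallest adjusted p by edgeR was 0.136, for Usp18, Rsad2 and Oasl2.

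No member passed the test between Foxp3 states. Cells with a Foxp3 UMI numbered 120 (7.48%) and 440 (13.2%), and the 6 regulatory T cell markers, Foxp3 included, summed to 3278 and 3099 CPM in them against 663 and 746 CPM in the rest. Irf7 was at 114 CPM in Foxp3-positive and 138 CPM in Foxp3-negative cells of replicate 1, and at 94.9 and 127 CPM in those of replicate 2. Stat3 was at 136 and 114 CPM, then 169 and 152 CPM. Irf8 was at 43.9 against 38.5 CPM and 64.7 against 50.7 CPM. Socs3 was at 53.8 against 82.3 CPM and 86.2 against 90.2 CPM, and at 39.1 against 39.7 CPM in replicate 1 without cells with a fibroblast marker UMI. Stat2, Irf1, Irf9 and Socs1 had log2 ratios between -0.36 and 0.31 in each replicate.

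Without a replicate term edgeR called 0 of 10936 genes (0%) between the Foxp3 states, 342 had an unadjusted p under 0.05, and DESeq2 called 57. The Irf7 fold change was -0.39 ± 0.21 on the log2 scale (SE, n = 2, adjusted p = 1.0 by edgeR). With the block edgeR called 502 genes (4.59%) and none of the 8 members, with adjusted p from 0.135 for Irf7 to 0.993 for Irf1. Among the genes called with the block were Pim1 (1.13 ± 0.11) and Bcl3 (0.85 ± 0.19), both STAT3 targets, as is Junb (0.24 ± 0.08), and Ifngr1, a chain of the interferon-gamma receptor (0.53 ± 0.09). Irf5 (1.10) was called among the other STAT and IRF genes, and Gbp3 (0.76) among the interferon-gamma type targets. Of 17 type I targets, Mx1 (-1.66) and Rsad2 (-1.37) were lower and Ifi27l2a (0.52) higher, and Usp18 was lower (-0.88).

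**Figure D5:**
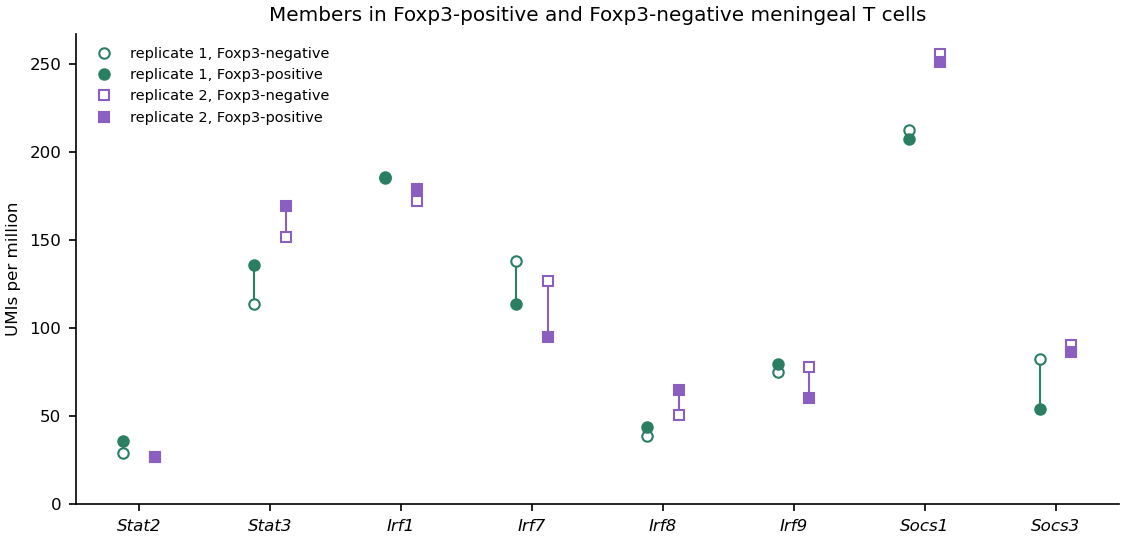
Level of each gene (CPM) in Foxp3-negative (open points) and Foxp3-positive (filled points) meningeal T cells, joined within a replicate. Irf7 is lower in Foxp3-positive cells in both replicates. Socs3 is lower too, but by little in replicate 2 (86.2 against 90.2 CPM). Socs1 differs little in both (207 against 212 and 251 against 256 CPM).

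Whether the Ifit contrast differed between Foxp3-positive and Foxp3-negative cells was tested as an interaction, on 13 and 24 cells that were positive for both. edgeR called 0 of 7567 genes (0%), with 312 at an unadjusted p under 0.05, 8 with the block and 1 by DESeq2, and no member in any of these fits. The interaction of Irf7 was 0.12 ± 0.34 on the log2 scale and that of Irf9 -0.14 ± 0.48. Stat2 had -1.73 ± 0.68 (n = 2, adjusted p = 1.0 by edgeR), on 2 and 3 Stat2 UMIs in the doubly positive cells, and the replicates gave -3.02 and -0.35.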

How the data were processed

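Gene expression was measured in single cells of 2 meningeal and 2 hippocampal samples. The authors deposited whole-number UMI counts for each gene in each barcode. Cell Ranger versions 4.0.0, 6.0.0 and 6.1.0 made them, per the file headers. The submitters' processing notes name mm10, and the annotation release is not given in the sources used here. The labels' protocol names a 3′ kit and the series design a 5′ kit for T cells. Meningeal barcodes were taken by their sample's hashtag, with at least 10 deposited hashtag counts and 5 times the next one. For replicate 1 the hashtag's name in the labels decided, since the sequence given beside it is not that hashtag's in the table. Meningeal T cells needed 500 genes, under 10% mitochondrial UMIs, at least 1 T-cell marker UMI and at most 1 UMI of B-cell, dendritic or myeloid markers. Hippocampal cells needed 500 genes and under 15% mitochondrial UMIs, and 242 and 158 Scrublet doublets (Scanpy 1.11.5) were left out. A class needed 2 UMIs of its marker and 3 times the other 5 together, which left 1137 and 1103 cells in no class.

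Counts were summed per replicate and state and tested with edgeR 4.0.16 (TMM, filterByExpr, Benjamini-Hochberg over all genes, no replicate term), with DESeq2 1.42.0 as an alternative. The unblocked edgeR fit was run on simulated sums with known changes, drawn without the spread that real sums of a replicate share. The labels do not say how many mice made a meningeal replicate, so p-values without the block measure the spread between these samples. Those with the block measure only the spread left after the replicate term. Intervals cover counting error only. Sums with the same replicate number come from the same library, and their deviations from the group means correlated across genes (r = 0.71 for the Foxp3 and 0.78 for the Ifit contrast). All 8 members were described. Of each list, the genes past the threshold were named, up to the 5 with the largest fold, or up to 3 for the hippocampal ratios, with a few of them given only in the counts. One gene among those most like a member is not reported here. The members, lists and tests were chosen with earlier results of these data known. The Ifit split of hippocampal cells, and leaving out the cell richest in a member or cells with a fibroblast marker UMI, were added after seeing the data.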

Additional observations from a re-analysis of the deposited data

Results flagged for a closer look

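Irf8 appeared among hippocampal cells that met no class rule and so entered no comparison. It was at 4.30 CPM in the 1103 such DTRpos cells (15 UMIs in 10 cells) against 2.35 CPM in the 1137 DTRneg cells (11 UMIs in 11 cells), a log2 ratio of 0.87 with a counting interval from -0.35 to 2.14. Over all cells kept, 10 of the 22 DTRpos Irf8 UMIs lay in 5 cells with at least 2 UMIs of microglia and macrophage markers, and 0 of the 17 DTRneg UMIs did. Cells with at least 2 such marker UMIs numbered 14 in DTRpos and 11 in DTRneg.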

How the results depend on the processing

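With the replicate block, 502, 423 and 8 genes were called for the Foxp3 state, the Ifit state and their interaction, against 0 without it. DESeq2 called 57, 103 and 1, and no filter on low counts gave 15, 161 and 28. Cells thinned to 1000 UMIs gave 29 for the Ifit state. Called members of the Ifit contrast numbered 6 with the replicate block, 4 by DESeq2, 3 without the filter and 1 (Irf7) in thinned cells. Without cells with a fibroblast marker UMI the blocked fit called 415, 341 and 1 genes, and 4 members for the Ifit contrast. The other settings run called 0 genes in the 3 contrasts. Leaving out a replicate leaves no residual degrees of freedom, so it gave values with no test. In the hippocampus 7 pairs of member and class passed 1.5-fold. Thinning to 2000 UMIs gave 4, with fewer pairs compared, and kept 3 of those 7. It lost Socs3 in Cldn5 cells, Irf9 in Pdgfra cells and Irf1 and Irf7 in Mog cells, and gained Socs3 in Dcn cells. In thinned cells 3 of the 7 fell below the UMI minimum. A minimum of 10 UMIs gave 12, with more pairs compared. Over all genes, that minimum gave 2483, 2284, 2249, 2099, 2462 and 1641 past 1.5-fold in Cldn5, Rgs5, Aqp4, Pdgfra, Mog and Dcn cells, against 961, 642, 983, 933, 1064 and 326, and thinning gave 356 in Rgs5 and 141 in Dcn cells. For the pairs of member and class, the other 9 settings gave 6 to 9, and no called ratio changed sign. Among these 9, a class marker of at least 5 UMIs gave 7 but kept only 5 of the first 7. It lost Irf9 in Pdgfra and Socs3 in Mog cells and gained Stat3 in Aqp4 and Socs3 in Pdgfra cells. Except where the number of pairs or cells compared changed, the cause of these differences was not tested. Counting intervals leave out the spread between mice, which 1 pooled library per genotype cannot give.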
